A study of Mus musculus with 9 samples.

Results

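Lipid-depleted tumor-conditioned medium was compared with control in primary fibroblasts grown from the skin of newborn wild-type mice, to describe what conditioned medium still did to the cells after its lipids had been taken out. The comparison used 6 of the 9 RNA-seq libraries of the study, 3 lipid-depleted TCM and 3 control libraries; the other 3 libraries, from cells given complete tumor-conditioned medium (TCM), were set beside it where the direct test of lipid-depleted TCM against TCM was needed. All cells were wild type, labelled as normal skin fibroblasts, and maintained in DMEM with 10% fetal bovine serum and P/S. TCM came from YUMM1.7, a mouse melanoma line, after 24 h in DMEM with the same share of serum, and the lipid-depleted form was TCM that had been put through Cleanascite, a reagent that adsorbs lipids. The labels name neither the medium of the control cultures during treatment nor the length of treatment. No group received control medium put through the reagent, so other effects of the reagent cannot be told apart from the removal of lipids. The labels do not say whether replicates were separate cultures or animals; a p-value here reflects the spread among these libraries alone, which may be technical.

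A gene entered the comparison if its normalized count, the reads of a gene divided by 1 size factor per library, reached 10 in 3 or more of the 6 libraries. This left 16643 of the 55401 genes in the deposited table. Differences are given on the scale of log2(normalized count + 1), lipid-depleted TCM minus control, a scale that makes changes of weakly expressed genes look smaller. A gene was called higher or lower where the adjusted p from limma, a linear model fitted across all genes with Benjamini-Hochberg adjustment over the 16643 genes, was below 0.05. Adjusted p-values below are of this kind. The sign ± gives the SD of 3 libraries after a mean normalized count and the standard error (SE) after a log2 difference, and a rise or fall given as 1 number is a log2 difference. Except where an overlap is stated, the control and lipid-depleted libraries of a gene described as higher or lower did not overlap. Coordinates are those of GRCm38, the assembly also called mm10.

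Several regulatory systems recur in the results. NF-kB, a transcription factor that inflammatory signals release from its inhibitors, drives chemokine genes in fibroblasts, and interferons drive antiviral genes through elements called ISRE. SREBP factors turn on sterol and fatty acid synthesis when sterols in the endoplasmic reticulum are scarce, LXR receptors turn on sterol export when oxysterols are plentiful, and MiT/TFE factors turn on lysosomal genes when the lysosomal GTPases that signal nutrients are off. Genes of mitosis are read through CHR elements bound by the DREAM and B-MYB complexes, and genes of DNA replication through E2F sites. Smooth muscle actin and its partners, read through CArG elements bound by SRF, mark the contractile state of activated fibroblasts.

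Recovered reads were 51015024 to 64965906 per library, and no pair of replicates agreed within sampling noise. Transcripts of the mitochondrial genome took 1.77% to 1.85% of reads in control, 1.82% to 2.12% in lipid-depleted TCM and 2.67% to 3.14% in TCM. The labelled cell type was checked against its markers: 12 of 12 fibroblast markers passed the filter, and their summed normalized count was 2441532 to 2510297 per library in control and 1643747 to 1699272 in lipid-depleted TCM. Of these, 6 were called higher and 4 lower. Among all 16643 genes tested, 29.7% were called higher and 31.1% lower, and the marker counts here are to be read beside those shares. Markers of keratinocytes (165 to 198 in control, 88.2 to 113 in lipid-depleted TCM), of melanocytes or melanoma cells (278 to 328 and 276 to 380.0), of endothelial cells (329 to 382 and 509.7 to 544) and of myeloid cells (312 to 404 and 456 to 477) summed to far less. Of 5 melanocyte or melanoma markers tested, 1 was called higher and none lower. Mlana had 5.31, 2.32 and 4.37 in control, 29.8, 37.5 and 29.3 in lipid-depleted TCM and 0.951, 2.84 and 6.74 in TCM. It was under 10 in every control library, and carry-over of melanoma cells was not tested. Adipocyte, skeletal muscle and Schwann cell markers summed to 1884 to 1911, 1839 to 2019.6 and 1230.2 to 1300.3 in control and 1547 to 1675, 1738 to 1864 and 1519 to 1604 in lipid-depleted TCM. No lymphocyte or erythroid marker passed the filter; the T cell genes Cd3e, Cd3d and Cd8a, the B cell gene Ms4a1 and the globin genes were at 0 in all 6 libraries. Pericyte markers, which overlap with those of contractile fibroblasts, summed to 35432 to 37469.6 in control and 18569.6 to 18740.3 in lipid-depleted TCM, with 8 of the 9 tested lower and 1 higher. In bulk RNA, fewer cells of a type and less RNA per cell cannot be told apart.

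Promoter windows of genes that the results turn on are shown first, each from RefSeq on GRCm38.p6, 5′ to 3′ on the strand of the gene, with the letters of the searched motif in capitals on either strand. The first pair belongs to the chemokine genes with the largest rises and holds an NF-kB motif, written as GGG, any 2 bases, TT, any base and CC. The window of Cxcl2 (chr5:90903786-90903865, plus strand) holds it at 2 places.
Cxcl2: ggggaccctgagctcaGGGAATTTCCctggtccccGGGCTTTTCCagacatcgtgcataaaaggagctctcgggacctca
Cxcl10 (chr5:92348948-92349027, minus strand): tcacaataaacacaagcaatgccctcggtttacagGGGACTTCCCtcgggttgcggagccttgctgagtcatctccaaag
In the promoter window from 250 bases before to 50 after the start, 7 of 15 (46.7%) of the matched chemokine genes held the motif, against 5.33% of the 11041 promoters of tested genes. The share was 7 of 15 (46.7%) in the list of NF-kB subunits and feedback inhibitors and 2 of 19 (10.5%) in that of NF-kB effector genes. Ccl9, a chemokine with the motif, was lower than in control (log2 -1.26 ± 0.33). Hmgcs1, the first committed enzyme of sterol synthesis, holds a match to a sterol element, TCACNCCAC, found in 1 of 18 promoters of the cholesterol synthesis list, 0 of 20 of the fatty acid synthesis list and 1.04% of all.
Hmgcs1 (chr13:119690178-119690257, plus strand): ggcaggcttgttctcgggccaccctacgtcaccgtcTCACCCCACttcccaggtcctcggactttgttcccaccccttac
The lysosomal element called CLEAR was searched as TCACGTG, which overlaps itself on the opposite strand. It was found in 10 of 36 (27.8%) of the matched lysosomal promoters and 6 of 29 (20.7%) of those of the MiT/TFE and RagD list, against 6.05% of all. The window of Mcoln1, the lysosomal calcium channel and a member of the latter list, is shown.
Mcoln1 (chr8:3500437-3500516, plus strand): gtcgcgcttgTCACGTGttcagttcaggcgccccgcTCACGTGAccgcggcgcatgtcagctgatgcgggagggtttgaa
For the cell cycle genes, the CHR letters TTTGAA stood in 24 of 31 (77.4%) of the matched mitosis promoters against 12% of all, and the E2F letters TTTNNCGC in 15 of 33 (45.5%) of the matched replication promoters against 8.49%. Mki67 encodes the proliferation antigen Ki-67, and Orc1 the large subunit of the origin recognition complex.
Mki67 (chr7:135716435-135716514, minus strand): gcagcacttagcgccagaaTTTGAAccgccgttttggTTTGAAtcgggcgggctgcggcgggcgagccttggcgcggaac
Orc1 (chr4:108579374-108579453, plus strand): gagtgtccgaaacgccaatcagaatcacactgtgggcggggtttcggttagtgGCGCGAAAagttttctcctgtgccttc
Ifit3, an antiviral gene, is shown for the interferon element ISRE, written as GAAA, any 2 bases and GAAA, which 11 of 18 (61.1%) of the matched interferon-stimulated promoters held, against 2.89% of all.
Ifit3 (chr19:34583372-34583451, plus strand): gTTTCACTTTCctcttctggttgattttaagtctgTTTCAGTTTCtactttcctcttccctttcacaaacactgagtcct
A match is a description of letters, not of binding.

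In lipid-depleted TCM, most chemokine, NF-kB, antigen presentation, complement and lysosomal genes were higher than in control, and most genes of mitosis, DNA replication, sterol and fatty acid synthesis, contraction, collagens and the BMP and Wnt pathways were lower. Of the 16643 genes tested, 10123 were called (60.8%), 4944 higher (29.7%) and 5179 lower (31.1%). The counts of each list below are to be read beside these shares, as a list near both differs little from all genes. Lists near both included those of cytokines, hypoxia, ribosome biogenesis, the nuclear respiratory chain, glutamine and cyclins. At least 2-fold changes were called for 968 genes (5.82%) in the higher and 1328 (7.98%) in the lower direction. In 72% of genes the 3 libraries of one group all lay above the 3 of the other. The median log2 difference over all tested genes was 0.00025 and the median size 0.32. Scaling every library to the same total, in place of the deposited size factors, moved the median of all genes by 0.148 and made 65.5% of calls higher in place of 48.8%. Counts under that scaling, called same-total scaling below, are given where they moved by more than 1.5 times.

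**Figure D1:**
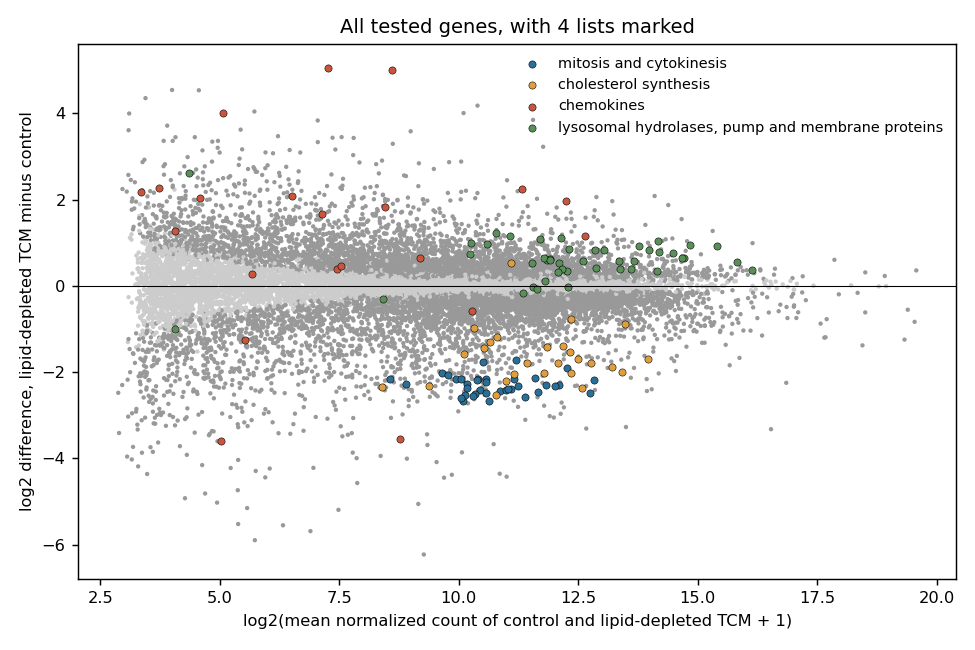
Each point is 1 of the 16643 tested genes, with the log2 of its mean normalized count + 1 over the 6 libraries on the x axis and its log2 difference, lipid-depleted TCM minus control, on the y axis; dark grey points were called by limma. All 37 mitosis genes lie below -1, 25 of 26 cholesterol synthesis genes lie below 0, and the largest chemokine differences reach 5.05.

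Among secreted factors, rises were frequent in the chemokines, peptides that attract leukocytes. Of 34 listed chemokine genes, 21 passed the filter. Of these, 16 were called higher and 4 lower, beside 29.7% and 31.1% of all genes, with a median log2 difference of 1.66. Cxcl2, Cxcl9, Ccl5 and Ccl20 were under 10 in every control library and passed the filter through the lipid-depleted libraries alone. Ppbp passed it through the control libraries alone. All of these genes are among the 16 higher and 4 lower calls, and for them the filter itself fixed the direction of any call. Against TCM itself, 9 of the 21 were higher and 7 lower; among all tested genes 45.9% were called between the media, 23.2% higher and 22.7% lower.

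Cxcl2, a neutrophil attractant (ENSMUSG00000058427.10, chromosome 5, 90903871 to 90905938, plus strand), had 9.56, 8.11 and 6.56 normalized counts in the control libraries, 261, 357 and 279 in lipid-depleted TCM and 28.5, 28.4 and 26 in TCM. Every lipid-depleted library stood far above every control and every TCM library. The log2 difference from control was 5.05 (SE 0.20), in the direction that the filter fixed. Cxcl10, which attracts activated T cells (ENSMUSG00000034855.13, chromosome 5, 92346638 to 92348889, minus strand), had 7.44, 18.5 and 74.4 in control, 836, 717 and 679 in lipid-depleted TCM and 12.4, 5.68 and 2.89 in TCM. Control replicate 3 was the highest control library, yet far below the lipid-depleted ones, and the TCM libraries lay at or under the level of the controls. The log2 difference was 5.0 from control (SE 0.62, limma adjusted p = 1.7e-05) and 6.72 from TCM (limma adjusted p = 2.9e-06). Ccl5, an attractant of T cells and monocytes, followed the same pattern, with 3.19, 1.16 and 5.47 in control, 64.5, 65.9 and 55.7 in lipid-depleted TCM and 1.9, 1.89 and 2.89 in TCM. Cxcl9, a close relative of Cxcl10, did so at a lower level, with 3.19, 2.32 and 5.47 in control, 18.2, 19.3 and 25.4 in lipid-depleted TCM and 0.951, 0 and 0 in TCM. Among the 9 libraries, all 4 genes described so far were highest in the lipid-depleted ones.

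The abundant chemokines rose by smaller factors. Ccl2, the main monocyte attractant, had 2064, 1941 and 1897 in control and 7983, 7281 and 8013 in lipid-depleted TCM, with TCM between at 3988, 2935 and 3247. Ccl7, its neighbour on chromosome 11, went from 3947 ± 72.4 (SD, n = 3) to 8788 ± 339. Cxcl12, a fibroblast chemokine that retains CXCR4-bearing cells, had 893, 923 and 856 in control and 4338, 4087 and 4378 in lipid-depleted TCM. In each of these genes the groups did not overlap. Per kilobase of exon, the mean normalized count in lipid-depleted TCM was 10971 for Ccl7, 6818 for Ccl2, 522 for Cxcl12, 330.3 for Cxcl10 and 145 for Cxcl2, so the genes with the largest changes were not the most abundant ones.

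Other chemokines stood between control and TCM or fell. Cxcl1, another neutrophil attractant, had 153 ± 23.6 in control, 546 ± 42.5 in lipid-depleted TCM and 896 ± 49.2 in TCM, and Ccl11, eotaxin, had 33.8 ± 3.91, 146 ± 19.1 and 307 ± 21.3 in that order. Both were lower than in TCM (limma adjusted p = 0.00017 and 5.2e-05). Cxcl14, a chemokine that skin expresses constitutively, went the other way, with 791, 829 and 789.6 in control and 76.1, 58.8 and 70.3 in lipid-depleted TCM. Ppbp, a platelet chemokine gene, fell from 59.2 ± 13.2 to 3.97 ± 0.963. The ligand Cxcl16 rose from 66.9 ± 14.5 to 211 ± 13, whereas its receptor Cxcr6 fell from 102, 79.9 and 91.9 to 3.31, 1.01 and 0.977.

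**Figure D2:**
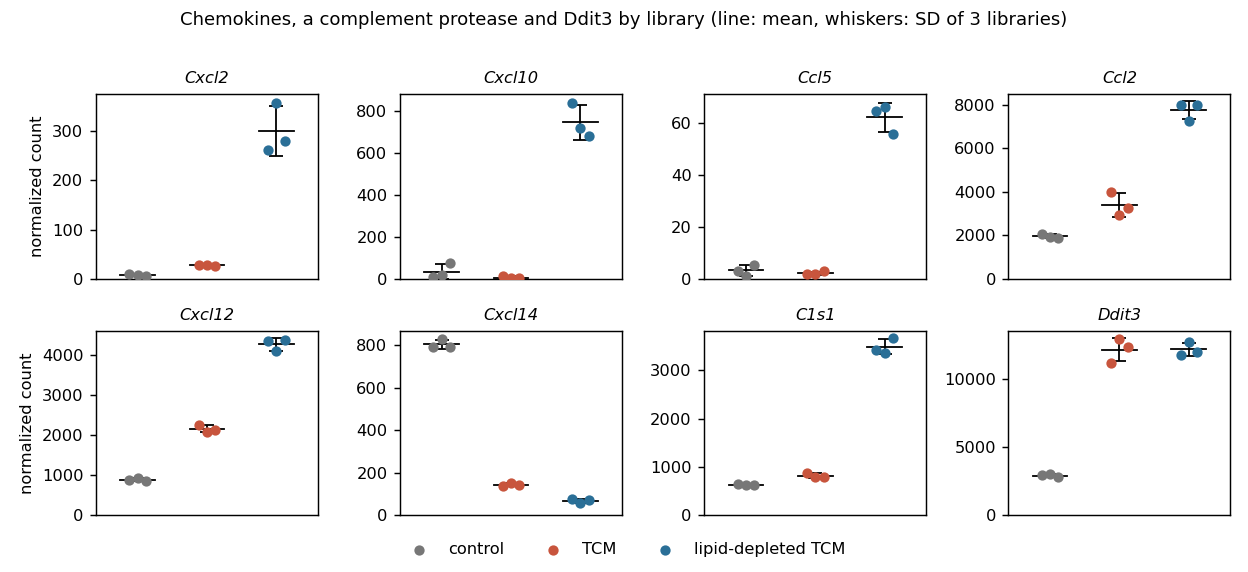
Normalized count of 8 genes in each library on linear axes, with the line at the mean and whiskers at the SD of 3 libraries per group (control grey, TCM red, lipid-depleted TCM blue). Of these 9 libraries the lipid-depleted ones are highest for Cxcl2, Cxcl10 and Ccl5, Cxcl14 is low in both media, and Ddit3 is high in both media, with means of 12159 and 12167.

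Cytokines and colony-stimulating factors did not move together: of 27 genes 17 passed the filter, 5 of them higher and 4 lower. Csf1, the growth factor of macrophages, rose from 23394, 23833 and 24262 in control to 57340.4, 58959 and 56638 in lipid-depleted TCM, a log2 difference of 1.27 ± 0.04. Il33, an alarmin, rose from 91.8 ± 23.2 to 234 ± 28.5, and Lif, a cytokine of the interleukin 6 family, from 377 ± 24 to 708 ± 43.1. Il6 itself had 32.9, 34.7 and 25.2 in control and 40.5, 31.4 and 44 in lipid-depleted TCM, values that overlapped (limma adjusted p = 0.18), beside 229, 174 and 188 in TCM. The largest falls were of Tnfsf15, a TNF family ligand, from 101 ± 2.87 to 4.56 ± 2.19, and of Il1rn, the interleukin 1 receptor antagonist, from 77.4 ± 9.81 to 4.0 ± 1.77. Tnfsf11, which encodes RANKL, and Il18 had log2 differences of -1.59 ± 0.22 and -1.48 ± 0.23.

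Among NF-kB subunits and the feedback inhibitors that NF-kB itself induces, 11 of 18 were higher and 2 lower, with a median of 0.33; against TCM, 11 were higher and 3 lower. Tnfaip3, the ubiquitin-editing inhibitor A20, had 276, 242 and 229.7 in control, 529, 517 and 544 in lipid-depleted TCM and 189, 159.9 and 202 in TCM. Nfkbia, the inhibitor IkB-alpha, had 817, 893 and 841 in control, 1285, 1319 and 1449 in lipid-depleted TCM and 412, 528 and 490.1 in TCM. For both genes lipid-depleted TCM lay above control and TCM below it, with no overlap. Nfkbiz, an atypical IkB protein, and Relb, a subunit of the alternative pathway, rose by 1.17 ± 0.08 and 0.92 ± 0.08, and Bcl3, a nuclear IkB protein, by 0.90 ± 0.16. Rel was lower (log2 -0.35 ± 0.07), and Rela, the main transactivating subunit, was not called (log2 -0.08 ± 0.05).

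Of the NF-kB effector genes, 17 of 23 tested were higher and 4 lower, with a median of 0.78. The rises include Saa1, Saa2 and Lcn2, which were under 10 in every control library, so that the filter itself fixed their direction. Mmp3, a secreted protease that cuts matrix proteins, had 22.3, 16.2 and 3.28 in control, 124, 122 and 152 in lipid-depleted TCM and 185, 102 and 114 in TCM. Its relative Mmp13, a collagenase, had 22.3, 10.4 and 19.7 in control and 159, 139.9 and 171 in lipid-depleted TCM, so both were low in every control library. Saa3, an acute-phase apolipoprotein, had 19.1, 18.5 and 21.9 in control, 128, 100.4 and 159 in lipid-depleted TCM and 1.9, 10.4 and 7.7 in TCM, so that the TCM libraries were the lowest. Lcn2, a siderophore-binding protein, had 0, 2.32 and 1.09 in control, 55.4, 37.5 and 39.1 in lipid-depleted TCM and 6.66, 7.57 and 5.78 in TCM. Ptgs2, the inducible cyclooxygenase COX-2 and also an NF-kB target, fell from 2683 ± 236 to 953 ± 71.7 (log2 -1.49 ± 0.09).

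Complement and acute-phase genes rose in 11 of 18 cases tested, with 2 lower (none lower under same-total scaling, 1 after quantile normalization) and a median of 0.72. The 11 include Saa1, Saa2 and Lcn2, whose direction the filter itself fixed, as given above. Restricted to genes with values of at least 50, 7 were higher. C1s1, a protease of the first complement component, had 655, 629.9 and 624 in control, 3429, 3366 and 3666 in lipid-depleted TCM and 878, 797 and 796 in TCM. The lipid-depleted libraries stood apart from both other groups, with log2 differences of 2.45 ± 0.06 from control and 2.08 from TCM (limma adjusted p = 8.3e-12 and 1.8e-10). Its partner protease C1ra went from 1605 ± 53.8 in control and 1685 ± 80.6 in TCM to 3386 ± 10.2. C2, the next protease of the classical cascade, and Hp, haptoglobin, rose by 1.20 ± 0.25 and 1.39 ± 0.11; C2 overlaps Zbtb12 on the opposite strand, and the strand setting of the counting is not given in the sources used here.

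Control replicate 3 was the highest control library for Isg15, Ifit3, Ifit3b, Bst2 and Usp18, so counts of interferon-stimulated genes are given with and without it. Isg15, an interferon-induced ubiquitin-like protein, had 49.9, 83.4 and 198 in control replicates 1 to 3 and 186, 137 and 123 in lipid-depleted TCM, values that overlapped (limma adjusted p = 0.15). In TCM it had 1083, 772 and 929. Of 26 interferon-stimulated genes tested, 14 were higher than control, 1 was lower and 11 were not called; without control replicate 3, 19 were higher and 1 lower. The median log2 difference was 0.52 with that library and 0.91 without it. Against TCM, 21 of the 26 were lower and none higher, with a median of -0.87.

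The called genes that rose most were Ifit3, Ifit3b, Bst2 and Dhx58. Ifit3 had 51, 49.8 and 157 in control, 549, 488 and 552 in lipid-depleted TCM and 494, 479 and 452 in TCM; its near-identical neighbour Ifit3b, from which reads may not be separable, had 34, 20.8 and 113 in control, 266, 257 and 273 in lipid-depleted TCM and 293, 359.5 and 261 in TCM. In Ifit3 and Ifit3b both conditioned media lay above control without overlap, and lipid-depleted TCM and TCM differed by 0.16 in Ifit3 (limma adjusted p = 0.72). Bst2, the virus tether tetherin, had 287 ± 64.2, 830.1 ± 19.9 and 1421 ± 197 in the same order. Dhx58, an RNA sensor of the RIG-I family, rose by 1.31 ± 0.14. Usp18, the protease that takes ISG15 off proteins, had 18.1, 20.8 and 87.5 in control and 49.6, 16.2 and 16.6 in lipid-depleted TCM, values that overlapped, and was not called.

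Antigen presentation genes rose in 14 of 15 cases tested, with none lower and a median of 0.95. The class I heavy chain H2-K1 had 2283, 2250.0 and 2408 in control and 5347, 5595 and 5458 in lipid-depleted TCM. H2-D1, another class I heavy chain, went from 3095 ± 140.2 to 7406 ± 249.8, and B2m, their shared light chain, from 9587 ± 646 to 15796 ± 499. Class II genes were present at much lower counts: H2-Ab1 had 22.3, 22 and 14.2 in control and 81.9, 89.2 and 62.5 in lipid-depleted TCM, and Cd74, the invariant chain, 62.4 ± 18.2 and 213 ± 36.6. Over the same libraries the myeloid markers, whose cells carry class II, summed to 312 to 404 in control and 456 to 477 in lipid-depleted TCM, and 6 of the 10 did not pass the filter. Of the 4 that did, Lyz2, lysozyme, rose from 204 ± 30.8 to 365 ± 18.7, Csf1r, the macrophage growth factor receptor, fell from 78.9 ± 19.7 to 11.8 ± 4.51, and Cd68 and Cd14 were not called. Ptprc, the pan-leukocyte gene, had at most 3.19 normalized counts in these libraries, and Fcgr1, a myeloid Fc receptor, was at 0. The part of such cells in the class II values was not tested.

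Genes of sterol synthesis and uptake fell almost without exception. Of 26 genes, 25 were lower and 1 higher, 22 of the falls being at least 2-fold, with a median log2 difference of -1.74. Idi1, isopentenyl-diphosphate isomerase (ENSMUSG00000058258.14, chromosome 13, 8885501 to 8892451, plus strand), had 10312, 10115 and 10326 in control, 2291, 1725 and 2007 in lipid-depleted TCM and 2940.3, 2663 and 2829 in TCM. Each lipid-depleted library was below each TCM library and far below control. Hmgcs1 fell from 24475 ± 108 to 7518 ± 387. Fdps, which makes farnesyl diphosphate, had 1089, 1129 and 1125 in control, 217, 224 and 223 in lipid-depleted TCM and 294, 159 and 243 in TCM, so that both media were far below control and overlapped each other. Tm7sf2, a sterol reductase that overlaps Vps51 on its own strand, had a log2 difference of -2.34 ± 0.10. The gene that rose was Lpin1, a phosphatidate phosphatase (log2 0.54 ± 0.05). Against TCM, 15 of the 26 were lower and 3 higher. The list median of -1.74 stands beside -1.43 for TCM against the same control libraries.

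Genes of fatty acid synthesis and desaturation also fell, with 19 of 23 genes lower, 2 higher and a median of -0.68. Scd2, the stearoyl-CoA desaturase most abundant here, had 81286, 81971 and 81418 in control, 23526, 21882 and 22911 in lipid-depleted TCM and 37822, 37297 and 36176 in TCM. Scd1, its paralog, had 13409 ± 131, 4551 ± 79.5 and 10918 ± 366 in that order. Fads2, which desaturates polyunsaturated fatty acids, fell by 2.30 ± 0.05 on the log2 scale, Elovl6, an elongase, fell by 1.64 ± 0.04, and Acss2, which activates acetate and overlaps Ggt7 and Gss on the opposite strand, fell by 1.74 ± 0.08. For the desaturases and Elovl6 the lipid-depleted libraries were the lowest of the 9, and Acss2 did not differ from TCM by the test (limma adjusted p = 0.17).

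Genes that handle sterol export and fat use rose more often than they fell. Of 19 LXR targets and sterol efflux genes, 11 were higher and 4 lower (median 0.41). The 4 were Scarb1, Lpcat3, Osbpl6 and Mylip (log2 -0.92, -0.79, -0.54 and -0.30). Abca1, a sterol exporter and LXR target, was not called (log2 -0.04). LXR activity was not tested. Cyp27a1, which makes 27-hydroxycholesterol in mitochondria, had 29.7, 37.1 and 25.2 in control and 327, 352 and 346 in lipid-depleted TCM. Abcg1, a sterol exporter, rose from 188 ± 12.4 to 584 ± 48.7, and Ch25h, which makes an oxysterol, rose by 1.55 ± 0.13. Pltp, a phospholipid transfer protein that overlaps Ctsa on the opposite strand, had 1495, 1573 and 1463 in control, 3877, 4279.5 and 4138 in lipid-depleted TCM and 1398, 1444 and 1473 in TCM.

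Of 38 genes that burn fatty acids or respond to PPAR factors, 21 were higher and 7 lower (29 and 4 under same-total scaling, 23 and 4 after quantile normalization), and 22 were higher and 3 lower than in TCM. Angptl4, a PPAR target that inhibits lipoprotein lipase, rose from 883 ± 27.4 to 2766 ± 108. Ucp2, a mitochondrial carrier, fell from 2771 ± 54.5 to 807 ± 34.8 and Fabp5, a fatty acid-binding protein, fell by 1.02 ± 0.07. Among 21 lipid droplet and triglyceride genes, 13 were higher and 3 lower (13 and 1 under same-total scaling). Lpl, lipoprotein lipase, had 9367, 9101 and 9020.2 in control and 33923, 32841 and 34106 in lipid-depleted TCM, and Plin2, which coats lipid droplets, 5455, 5519 and 5198 and 10994, 10816 and 10858. Plin2 in TCM had 10918, 9731 and 9897, a range that overlaps that of lipid-depleted TCM (log2 0.10, limma adjusted p = 0.11). Mgll, which hydrolyses monoacylglycerols, fell from 5305 ± 75.6 in control to 2942 ± 144, and to 1346 ± 63.6 in TCM.

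**Figure D3:**
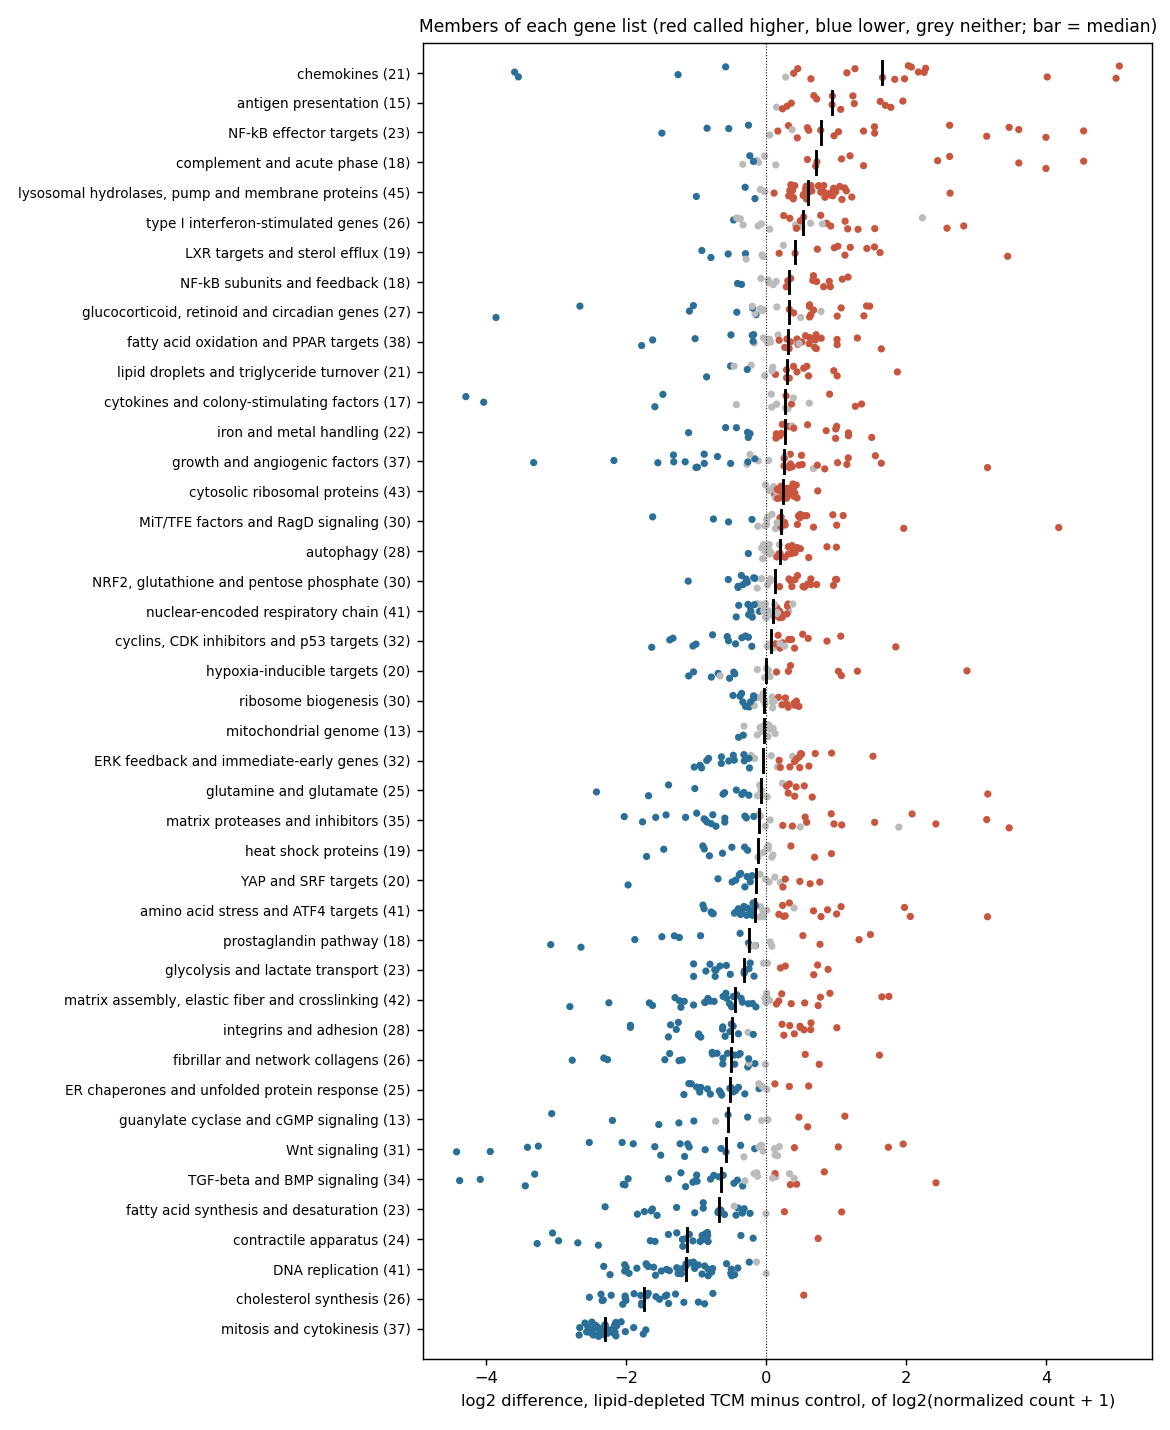
Log2 difference, lipid-depleted TCM minus control, of every tested member of 43 gene lists (number tested in brackets), ordered by the list median, which a black bar marks; red points were called higher, blue lower and grey neither. Chemokines have the highest median, 1.66, and mitosis genes the lowest, -2.31.

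Lysosomal genes rose broadly and by modest factors. Of 45 tested genes for hydrolases, the proton pump and membrane proteins, 39 were higher and 3 lower (41 and 1 under same-total scaling, and 1 lower without control replicate 2 or lipid-depleted TCM replicate 2), with a median of 0.60; against TCM, 26 were higher and 5 lower. Rragd, the GTPase RagD that presents nutrients to mTORC1 at the lysosome and is itself a MiT/TFE target (ENSMUSG00000028278.14, chromosome 4, 32983037 to 33022180, plus strand), had 160.4, 125 and 135 in control, 2571, 2441 and 2625 in lipid-depleted TCM and 1783, 1619 and 1473 in TCM. The 3 groups were in that order of control, TCM and lipid-depleted TCM with no overlap, and the log2 difference from control was 4.18 (SE 0.09, limma adjusted p = 5.5e-12). Flcn, the GTPase activator that acts on RagC and RagD, had 2288, 2468 and 2176 in control and 4188, 4758 and 4483 in lipid-depleted TCM, and Fnip2, its partner, rose from 1518 ± 40.5 to 3055 ± 113. Gpnmb, a membrane glycoprotein induced by MiT/TFE factors, had 3829.9, 4061 and 3712 in control, 15507, 15071 and 14754 in lipid-depleted TCM and 11674, 14530.2 and 12129 in TCM. Sqstm1, the autophagy receptor p62, went from 14441 ± 167 in control to 30978 ± 947, beside 32268 ± 1365 in TCM (limma adjusted p = 0.29 between the media). In the MiT/TFE and RagD list as a whole, 17 of 30 were higher and 4 lower (median 0.21).

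Among the hydrolases, Ctsf, a cysteine cathepsin, had 1028, 1138 and 1002 in control, 2382, 2508 and 2507 in lipid-depleted TCM and 1349.9, 1293 and 1358 in TCM. Neu1, a sialidase, rose from 1345 ± 64.5 to 2977 ± 89.2. Lamp1, a major glycoprotein of the lysosomal membrane, had 46229.9, 46421 and 47081 in control and 70484, 68824 and 67344 in lipid-depleted TCM. Mcoln1, whose promoter is shown above, went from 1942 ± 108 to 3102 ± 88.8. Autophagy genes were higher in 16 of 28 cases and lower in 1 (24 and 0 under same-total scaling, and none lower after quantile normalization or without control replicate 1, control replicate 2 or lipid-depleted TCM replicate 1), led by Gabarapl1, an ATG8 protein, at 1.00 ± 0.05, Retreg1, a receptor for autophagy of the endoplasmic reticulum, at 0.87 ± 0.11, and Map1lc3b, which overlaps Zcchc14, at 0.61 ± 0.04.

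**Figure D4:**
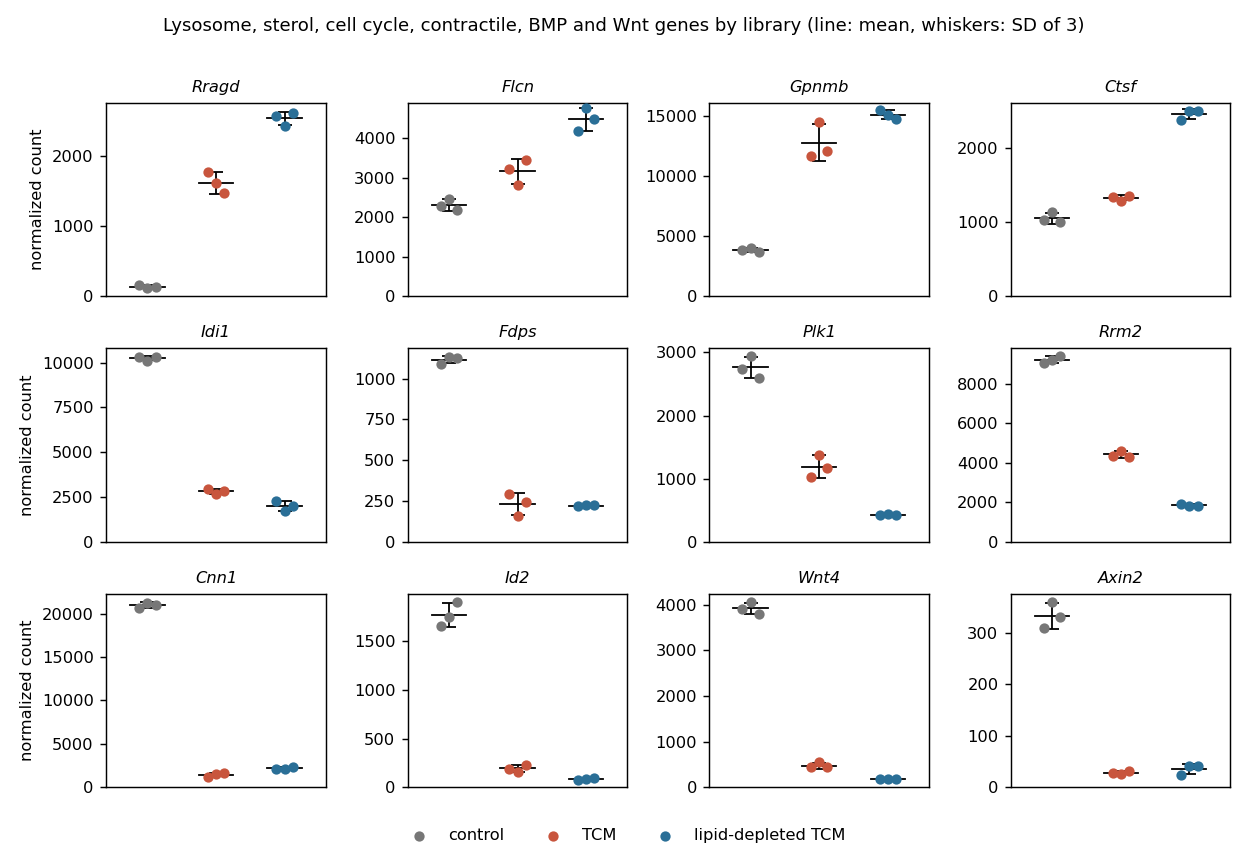
Normalized count of 12 genes in each library on linear axes that start at 0, with the line at the mean and whiskers at the SD of 3 libraries per group (control grey, TCM red, lipid-depleted TCM blue). Rragd, Flcn, Gpnmb and Ctsf are higher in lipid-depleted TCM than in control, and the 8 genes below them are lower, with Axin2 at 34.9 against 332.

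Stress-response genes were split. In the list of amino acid stress and ATF4 targets 13 of 41 were higher and 21 lower (16 and 11 under same-total scaling), yet the 4 largest changes were rises. Ddit3, the stress factor CHOP, had 2961, 3003 and 2784 in control, 11783, 12735 and 11983 in lipid-depleted TCM and 11209, 12910.5 and 12357 in TCM. Both media lay well above control, and between them the log2 difference was 0.0027 (limma adjusted p = 0.97); Ddit3 overlaps Mars, a tRNA synthetase gene, on the opposite strand. Fgf21, a stress-induced hormone, rose from 33.7 ± 7.66 to 306 ± 30 and exceeded TCM by 0.91. Stc2, stanniocalcin, and Trib3, a pseudokinase, rose by 1.98 ± 0.06 and 1.07 ± 0.05. Chaperones of the endoplasmic reticulum and other genes of the unfolded protein response fell in 19 of 25 cases, with 3 higher (median -0.52). P4hb, a protein disulfide isomerase, went from 73399.5 ± 679 to 34117 ± 609.7, Calr, calreticulin, from 61397 ± 525 to 29249.7 ± 1464, and Pdia4 and Manf fell by 1.18 ± 0.04 and 0.99 ± 0.06; Manf overlaps Rbm15b on its own strand and Dcaf1 on the opposite one.

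Glul, glutamine synthetase, the enzyme in the title of the study, had 834, 873 and 939 in control and 1189.8, 1089.9 and 1232 in lipid-depleted TCM. The groups did not overlap, as was so for 72% of all tested genes. Around it, 8 of 25 genes of glutamine and glutamate metabolism were higher and 10 lower. Slc6a6, a taurine transporter, fell from 34201 ± 564 to 10668 ± 349, Slc1a2, a glutamate transporter, fell by 1.40 ± 0.22, and Oat, ornithine aminotransferase, fell by 1.02 ± 0.07. Grm4, a metabotropic glutamate receptor, rose from 8.05 ± 2.63 to 78.3 ± 5.68, beside 164 ± 24.9 in TCM.

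Glycolysis and lactate transport genes fell in 16 of 23 cases, with 5 higher and a median of -0.31, and 17 were also lower than in TCM with 1 higher. Pkm, pyruvate kinase, had 61080.0, 62368 and 60438 in control, 29137, 30602 and 29864 in lipid-depleted TCM and 55272, 49578 and 52545 in TCM. Pfkfb4 and Pfkl, kinases that act on fructose 6-phosphate, fell by 1.04 ± 0.09 and 0.86 ± 0.05, and Eno2, an enolase, rose by 0.89 ± 0.10. Hypoxia-inducible targets divided evenly, with 7 of 20 higher and 7 lower, near the 29.7% and 31.1% of all genes. Adm, adrenomedullin, rose from 213 ± 14.2 to 1565 ± 40.2, Ndrg1 by 1.30 ± 0.04 and Ero1l, an oxidase of the endoplasmic reticulum, by 1.08 ± 0.05.

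NRF2, glutathione and pentose phosphate genes were higher in 15 of 30 cases and lower in 10, and against TCM 16 were lower and none higher. Hmox1, heme oxygenase, went from 6694 ± 46.5 to 13471 ± 647, Ftl1, ferritin light chain, from 48623 ± 2125 to 96730.4 ± 4134, and Nqo1, a quinone reductase, from 1962 ± 20.4 down to 906 ± 23.1. In the iron and metal list 15 of 22 were higher and 6 lower (15 and 3 under same-total scaling). Tfrc, the transferrin receptor, fell from 3541, 3409 and 3855 to 1748, 1679 and 1579, while Cp, ceruloplasmin, which overlaps Hps3, rose from 79.2 ± 11.7 to 226 ± 11.2. The metallothioneins Mt1 and Mt2, which bind zinc and copper, rose by 1.18 ± 0.17 and 1.18 ± 0.07, and both were lower than in TCM.

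Respiratory chain genes changed little. Of 13 genes of the mitochondrial genome 2 were lower and none higher, but that depended on scaling: 2 were higher and none lower under same-total scaling, and 5 higher and 1 lower after quantile normalization. Leaving out control replicate 1, control replicate 3 or lipid-depleted TCM replicate 2 took 1 of the 2 lower calls away, that of mt-Atp8. The 2 were mt-Atp8 (log2 -0.40 ± 0.13), which shares bases with mt-Atp6, and mt-Nd1 (log2 -0.33 ± 0.09). Against TCM, 11 of the 13 were lower. Of 41 nuclear genes of the respiratory chain, 13 were higher and 9 lower (22 and 2 under same-total scaling, 20 and 7 after quantile normalization, and 20 higher without TCM replicate 1), with called changes no larger than Cycs, cytochrome c, at -0.43 ± 0.05. Heat shock proteins were higher in 3 of 19 cases and lower in 9 (7 higher under same-total scaling, 6 after quantile normalization and 5 with TMM scaling). Hspa1a and Hspa1b, near-identical genes of inducible HSP70, fell by 1.46 ± 0.36 and 1.71 ± 0.29, whereas Hspe1, a mitochondrial chaperonin that overlaps its partner Hspd1, rose by 0.93 ± 0.06.

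Proliferation genes fell uniformly. All 37 genes of mitosis and cytokinesis were lower than in control, each at least 2-fold, with a median of -2.31, and all 37 were lower than in TCM. Plk1, the kinase that drives mitotic entry and exit, had 2745, 2941 and 2601 in control, 429, 448 and 418 in lipid-depleted TCM and 1020.0, 1379 and 1176 in TCM. Mki67 had 11202, 10541 and 13110.3 in control, 2388, 1851 and 2040.4 in lipid-depleted TCM and 5480.5, 7565 and 6518 in TCM. In both genes the lipid-depleted libraries were lowest, the TCM libraries intermediate and the control libraries highest, with no overlap. Birc5, survivin, Knl1 of the kinetochore and Cenpe, a kinetochore kinesin, had log2 differences of -2.67 ± 0.08, -2.59 ± 0.09 and -2.57 ± 0.08. The range over the list was narrow, from -2.67 to -1.72.

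DNA replication genes fell in 39 of 41 cases with none higher (1 higher under same-total scaling), 25 of them at least 2-fold, with a median of -1.15, and 39 were lower than in TCM. Rrm2, the ribonucleotide reductase subunit that limits deoxynucleotide supply, had 9054, 9176 and 9413 in control, 1929, 1798 and 1803 in lipid-depleted TCM and 4348, 4598 and 4311 in TCM. E2f8, a repressor of the E2F family, had 962 ± 59, 206 ± 34.2 and 755 ± 63.7 in that order. Tk1, thymidine kinase, fell by 2.02 ± 0.07 and Orc1 fell by 2.02 ± 0.12.

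Cyclins, CDK inhibitors and p53 targets were mixed, with 12 of 32 higher and 13 lower (19 and 10 under same-total scaling). Gadd45a, a stress gene that slows the cycle, rose from 1228, 1201 and 1187 to 4449.6, 4404 and 4212. Cdkn2a and Cdkn2b, inhibitors of CDK4 and CDK6 that accumulate in senescent cells, fell from 772 ± 21.5 to 298 ± 38.8 and from 2491 ± 52.2 to 802 ± 38.4. Cdkn1a, the inhibitor p21, had 22738, 23509.6 and 22427 in control and 23846, 23887 and 23077 in lipid-depleted TCM and was not called (log2 0.04 ± 0.04, limma adjusted p = 0.40). Rbl1, the pocket protein p107, fell by 1.33 ± 0.06, and Ccnd1, cyclin D1, fell by 0.44 ± 0.04. Ribosomal protein genes rose slightly, 36 of 43 with none lower and a median of 0.24; Rpl5 and Rps18, which overlap Fam69a and Vps52 on the opposite strand, had log2 differences of 0.43 ± 0.04 and 0.41 ± 0.07. Ribosome biogenesis genes were higher in 9 of 30 cases and lower in 10 (13 and 4 under same-total scaling), with Npm1, nucleophosmin, at 0.47 ± 0.06 and Bysl, which overlaps Ccnd3, at -0.47 ± 0.06.

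The contractile apparatus fell in 23 of 24 genes, 14 of them at least 2-fold, with a median of -1.12. Against TCM the order was the other way, 17 higher and 1 lower. Cnn1, calponin, had 20645, 21284 and 21036 in control, 2132, 2071 and 2310.0 in lipid-depleted TCM and 1223, 1459 and 1625 in TCM. Myh11, smooth muscle myosin, had 7794, 7511 and 8594 in control, 1066, 955 and 1031 in lipid-depleted TCM and 355, 438 and 429 in TCM. Both lay far below control, with the lipid-depleted libraries above every TCM library. Acta2, smooth muscle actin, went from 291565 ± 3266 in control to 127624 ± 1144, and Mylk, myosin light chain kinase, from 7255 ± 131 to 873 ± 27.2. Myocd, the coactivator of SRF in smooth muscle, had 261, 283 and 312 in control, 52.1, 38.5 and 40 in lipid-depleted TCM and 55.1, 65.3 and 72.2 in TCM; unlike Cnn1 and Myh11 it was lower than in TCM (limma adjusted p = 0.014). The gene that rose was Des, desmin, from 176 ± 27.8 to 295 ± 44.4. The pericyte markers, of which Myh11 and Des are 2, moved with this list as given above, and their part in it was not tested.

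Collagens fell in 21 of 26 cases, with 3 higher and a median of -0.50. Col1a1, the major chain of type I collagen, had 906710.1, 941587 and 933570.4 in control and 380379, 400697 and 392197 in lipid-depleted TCM, without overlap. Col3a1, of type III collagen, had 455993 ± 5647 and 452432 ± 10499.8 and was not called (log2 -0.01 ± 0.05). Col15a1, a basement membrane collagen, fell from 10829 ± 102 to 2167 ± 41.3, and Col10a1, a collagen of hypertrophic cartilage that lies within Nt5dc1 on the opposite strand, from 294 ± 14.6 to 42.3 ± 4.74. Col11a2 rose from 57.9 ± 15.9 to 177 ± 31.2.

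In the list of matrix assembly, elastic fibers and crosslinking, 27 of 42 were lower and 10 higher. Eln, elastin, had 4498, 4400.4 and 3801 in control, 605, 614 and 590.0 in lipid-depleted TCM and 223, 225 and 224 in TCM. Tnc, tenascin C, a matrix protein of wounds and tumor stroma, had 191328, 187836 and 208348 in control, 40846, 40246 and 42479 in lipid-depleted TCM and 67407, 75277 and 82719 in TCM. Eln was higher in lipid-depleted TCM than in TCM and Tnc lower, each without overlap. Among the small leucine-rich proteoglycans, Dcn, decorin, rose from 4664 ± 75 to 14689.6 ± 265, and Ogn, osteoglycin, had 3466, 3342 and 3279 in control, 11509.6, 11101 and 11428 in lipid-depleted TCM and 2272, 2134 and 2035 in TCM. Ogn was thus above control in lipid-depleted TCM and below it in TCM.

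Matrix proteases and their inhibitors were higher in 12 of 35 cases and lower in 17. The 4 largest changes were rises of metalloproteinases: Mmp3 and Mmp13 as above, Mmp27 from 19.4 ± 6.76 to 105 ± 7.13, and Mmp11, stromelysin-3, from 6646, 6985 and 6435 to 27105, 29999 and 28131. Integrins and adhesion genes fell in 17 of 28 cases with 10 higher (median -0.49). Itga11, a collagen-binding integrin of fibroblasts, had 69426, 71262 and 72146 in control, 27439.9, 27171 and 27947 in lipid-depleted TCM and 14271, 15371 and 16111 in TCM, and Itga6, a laminin-binding integrin, fell by 1.94 ± 0.07.

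Genes of the TGF-beta and BMP pathways fell in 21 of 34 cases, 12 of them at least 2-fold, with 5 higher (8 higher under same-total scaling) and a median of -0.64. Among the targets, Id2, an inhibitor of helix-loop-helix factors that BMP signals induce, had 1653, 1745 and 1899 in control, 75.3, 81.1 and 95.7 in lipid-depleted TCM and 191, 159.9 and 224 in TCM. Id1 and Id3 had log2 differences of -3.44 ± 0.25 and -3.31 ± 0.14. Of the secreted antagonists, Nog, noggin, had 1347, 1410.4 and 1442 in control and 80.3, 88.2 and 76.2 in lipid-depleted TCM, again with groups far apart. Of the ligands, Tgfb2 fell from 3374 ± 245 to 831 ± 26, while Bmp6 rose from 30.2 ± 1.96 to 167 ± 13.7. Sp7, the osteoblast factor osterix, which no list held, had 1062, 1063 and 1185 in control, 28.1, 36.5 and 32.2 in lipid-depleted TCM and 75.1, 61.5 and 71.2 in TCM.

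In the Wnt pathway 18 of 31 genes were lower, 13 of them at least 2-fold, and 4 higher (8 higher under same-total scaling). The ligand Wnt4 had 3912, 4047 and 3792 in control, 184, 188 and 173 in lipid-depleted TCM and 433, 549.7 and 432 in TCM, and the ligand Wnt2 fell from 171 ± 2.54 to 29.5 ± 7.1. Axin2, the feedback inhibitor that canonical Wnt signals induce, had 308, 359 and 330.3 in control, 23.2, 40.6 and 41 in lipid-depleted TCM and 26.6, 26.5 and 31.8 in TCM. Wif1, a secreted Wnt inhibitor, had 619, 635 and 599 in control, 38.1, 42.6 and 37.1 in lipid-depleted TCM and 33.3, 41.6 and 34.7 in TCM. For Axin2 and Wif1 both media were below control by about the same amount, the log2 difference between them being 0.25 and 0.11 (limma adjusted p = 0.35 and 0.55). Other secreted antagonists rose, Frzb from 143 ± 16.6 to 558 ± 31.4 and Dkk2 from 144 ± 9.77 to 486 ± 10.4.

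YAP and SRF targets were higher in 5 of 20 cases and lower in 10 (9 and 5 under same-total scaling). Without control replicate 2, or lipid-depleted TCM replicate 1 or 3, 3 were higher. Ccn2, connective tissue growth factor and a target of both TGF-beta and YAP, fell from 36020.4, 36397 and 41899.8 to 9943, 8581 and 10618, above the 3697, 4524 and 6499.7 of TCM. ERK feedback and immediate-early genes were higher in 13 of 32 cases and lower in 14 (15 and 8 under same-total scaling). Spry2, which restrains receptor tyrosine kinase signals, rose from 806 ± 22.4 to 2323 ± 89.9, Dusp4, a MAP kinase phosphatase, by 0.94 ± 0.11, and its relative Dusp5 fell by 0.95 ± 0.13. Egr3 and Myc, immediate-early factors, had log2 differences of -1.03 ± 0.28 and 0.43 ± 0.09.

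Growth and angiogenic factors went both ways, 17 of 37 higher and 14 lower. Igfbp5, which binds insulin-like growth factors, had 171145, 169381 and 177708 in control, 17818, 16365 and 17592 in lipid-depleted TCM and 45446, 46535 and 43476 in TCM. The groups stood in that order of control, TCM and lipid-depleted TCM with wide gaps (log2 -3.32 ± 0.05). Igf1 fell from 3191 ± 147 to 1434 ± 149, above the 577 ± 98.5 of TCM, and Nrg1, neuregulin, from 2391 ± 81.1 to 529 ± 40.4.

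Prostaglandin genes fell in 10 of 18 cases with 4 higher. Besides Ptgs2, Ptgfr, the receptor of prostaglandin F, had 940.2, 892 and 879 in control, 266, 231 and 239 in lipid-depleted TCM and 1176, 899 and 1006 in TCM, and was lowest in the lipid-depleted libraries. Ptger2, a receptor of prostaglandin E, rose from 253 ± 44.8 to 706 ± 60.6. In the guanylate cyclase list 7 of 13 fell and 3 rose (median -0.54). Gucy1a1, a subunit of the nitric oxide receptor, had 446, 394 and 343 in control, 49.6, 38.5 and 50.8 in lipid-depleted TCM and 5.7, 1.89 and 4.81 in TCM, and Npr3, a natriuretic peptide receptor, had 1613, 1634 and 1885 in control, 602, 586 and 577 in lipid-depleted TCM and 107, 104 and 87.6 in TCM. For both, lipid-depleted TCM lay between control and TCM without overlap.

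Of 27 glucocorticoid, retinoid and circadian genes, 12 were higher and 7 lower. The retinoid genes changed most: Aldh1a3, which makes retinoic acid, had 1902, 2044 and 2070.2 in control and 136, 126 and 150.4 in lipid-depleted TCM, and Cyp26b1, which degrades it, had 3968, 3794 and 4009 in control, 619.7, 632 and 606 in lipid-depleted TCM and 3253, 3018 and 3215 in TCM. Aldh1a3 was low in both media, whereas Cyp26b1 was low after lipid removal and near control in TCM (log2 -2.35 between the media). Aldh1a1, another retinaldehyde dehydrogenase, rose from 26.1 ± 3.43 to 74.7 ± 11.6. The circadian output factor Dbp, which overlaps Sphk2, rose from 576 ± 6.04 to 1559 ± 43.7.

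Several of the largest changes lay outside the lists. Ppef1, a phosphatase with calcium-binding EF hands, rose from 5.31, 6.95 and 3.28 to 107, 103 and 85, Lrrn4cl, a leucine-rich repeat protein, from 389, 424 and 357 to 5731, 5604 and 5535, and Plscr2, a phospholipid scramblase, from 77.6, 76.4 and 77.6 to 937, 993 and 889.8. Adhfe1, a mitochondrial oxidoreductase, had a log2 difference of 3.84 ± 0.25, and Ostn, the secreted peptide osteocrin, of 3.62 ± 0.34. Among the falls, Pcp4l1, a calmodulin-interacting peptide gene, went from 1219.6, 1202 and 1223 to 14.9, 9.12 and 25.4 (log2 -6.23 ± 0.29). Kcnk3, a background potassium channel, fell from 240.1, 245 and 210.0 to 6.62, 5.07 and 0.977, Asic3, an acid-sensing channel, from 326, 354 and 359 to 4.96, 11.2 and 10.7, and Grin3a, a subunit of NMDA receptors, from 143, 159.8 and 159.7 to 0.827, 1.01 and 8.79. Fam196b, Prss46, a serine protease, and Gpr183, an oxysterol receptor, had 3 reads each over the lipid-depleted group. Scaled by group size factors, summed reads were 111-fold lower for Fam196b (95% interval 37.6 to 541) and 86.4-fold lower for Prss46 (29.2 to 422). Those of Gpr183 were 62.7-fold lower (21.1 to 307). These intervals cover counting error only.

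Some large changes were of similar size with and without the lipids. Genes changed at least 4-fold from control made up 1.12% (higher) and 2.46% (lower) of those tested. A narrower set of these was counted, without provisional symbols and with the minimum mean in the higher group used for naming genes. In that set, 22 higher and 24 lower genes differed from TCM by less than 0.25 on the log2 scale. None of them was called between the media. Both counts are therefore not shares of all genes changed at least 4-fold. Chchd10, a protein of the mitochondrial intermembrane space, had 136, 118 and 128 in control, 1992, 2239 and 1967 in lipid-depleted TCM and 1336, 2718 and 2324 in TCM. It overlaps Mmp11 on the opposite strand, which also rose, so the 2 cannot be told apart without the strand setting. Tenm4, a teneurin adhesion protein, had 678, 584 and 761 in control, 6526, 6365 and 5978 in lipid-depleted TCM and 6372, 8505 and 7547 in TCM. Gbp6, a guanylate-binding protein, had 7.44, 18.5 and 17.5 in control, 110.0, 119 and 137 in lipid-depleted TCM and 130.2, 116 and 88.6 in TCM. Adm, Mmp3 and Wif1 given above belong here too. Among the falls were Car8, a carbonic anhydrase-related protein, from 436 ± 20.5 to 26.7 ± 4.64, and Unc5c, a netrin receptor, from 162 ± 12.8 to 14.1 ± 2.1. A missing call does not show that the media act alike.

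**Figure D5:**
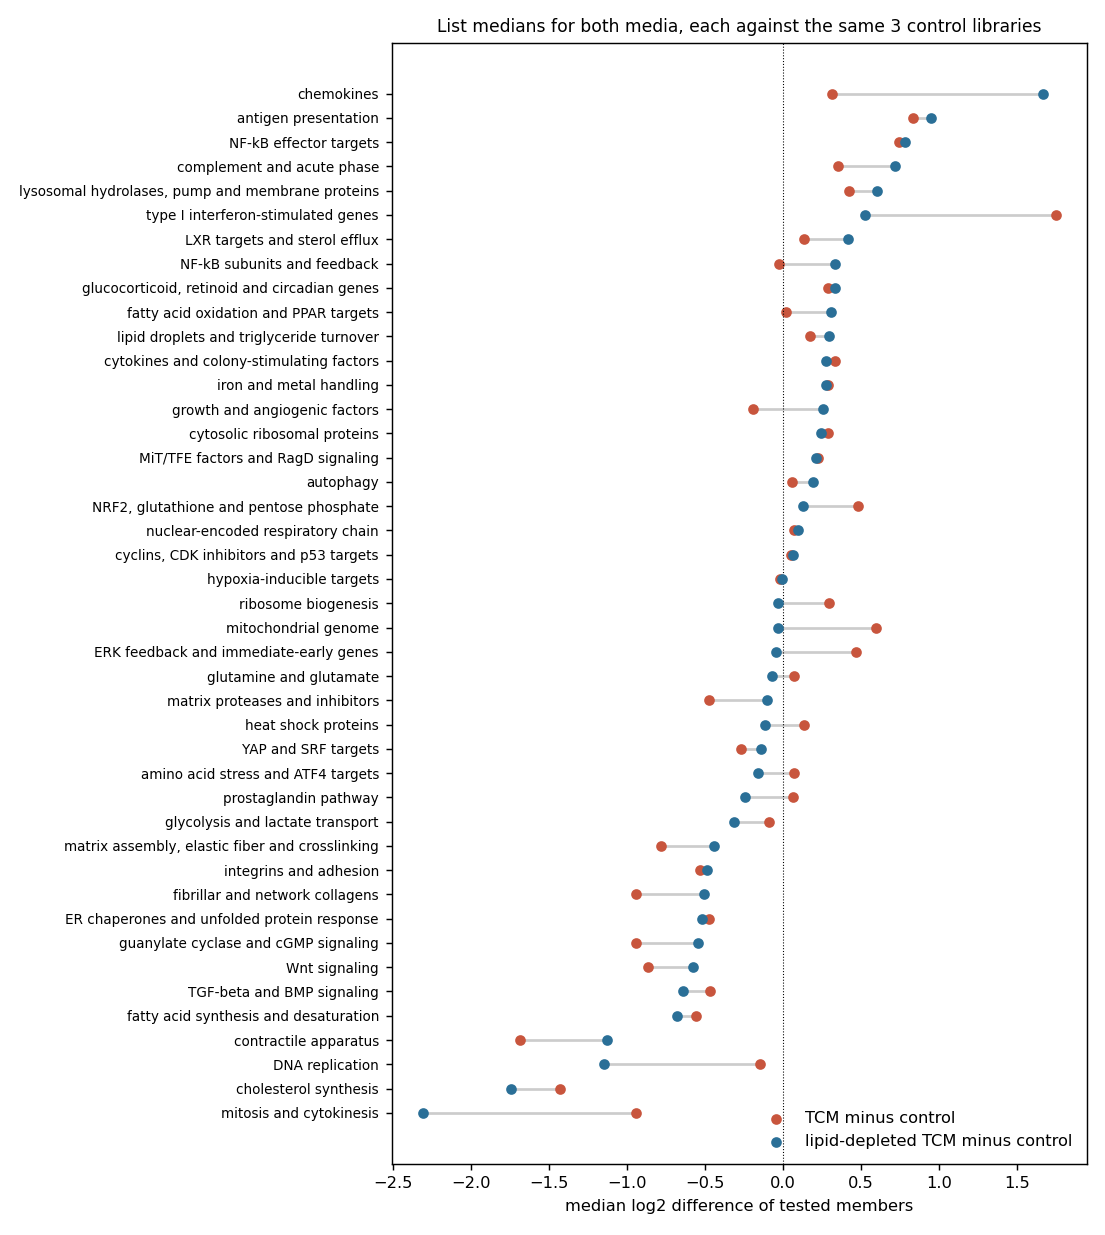
Median log2 difference of the tested members of each list for TCM minus control (red) and lipid-depleted TCM minus control (blue), with a grey line between them; both use the same 3 control libraries, so the points of a pair are not independent. For mitosis the medians are -0.94 and -2.31, and for the contractile apparatus -1.69 and -1.12. A gap between 2 list medians is not the median difference between the media, which for the chemokines is 0.19.

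Measured directly against TCM, the list medians were -1.41 for mitosis, -1.02 for DNA replication and -0.87 for interferon-stimulated genes. The contractile apparatus had 0.47, matrix proteases 0.44 and cholesterol synthesis -0.27. Chemokines had a median of 0.19, with 9 of 21 higher and 7 lower. Antigen presentation had 0.12, with 5 of 15 higher and 3 lower, endoplasmic reticulum chaperones -0.08, with 3 of 25 higher and 9 lower, and collagens 0.18, with 13 of 26 higher and 4 lower.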

How the data were processed

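Libraries of total RNA from 9 fibroblast samples were made with a stranded Illumina kit from column-purified RNA, per the labels' protocols. The submitters' processing notes name the mm10 build, STAR 2.7.9a, Trim Galore 0.6.6, FastQC and DESeq2; which tool counted reads, with which strand setting and annotation, is not given in the sources used here. The deposited values are a signal, each library's read counts over its own size factor: dividing each column by its smallest step gave whole reads for 100% of values within 0.01, and the recovered depth is given in the report. There were 3 libraries per group, and every replicate pair differed by more than sampling noise.

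Values were compared as log2(value + 1) with limma 3.58.1 (R 4.3.3), with a variance trend and 1 mean per group over all 9 libraries; genes needed at least 10 in 3 of the 6 libraries compared, and the Benjamini-Hochberg threshold was 0.05. The fit was tested on simulated data. A single value of 3 against 3 libraries cannot go below p = 0.1 in an exact permutation test, so none is given. As alternatives, edgeR 4.0.16, DESeq2 1.42.0 and limma-voom were run on the recovered reads, beside other pseudocounts, filters, scalings and left-out libraries. No pairing by replicate number was seen, and the main fit used none.

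The comparison and the 43 gene lists were chosen with earlier results of these data known. Genes were named by rule: the 10 largest rises and falls without overlap, the 4 largest called changes of each list, the 5 largest changes in each direction that lay within 0.25 of TCM, all averaging 50 or more in the higher group, and Glul. Named after their values were seen were Abca1, Acta2, B2m, Bmp6, C1ra, Ccl2, Ccl7, Ccl9, Ccl11, Ccl20, Ccnd1, Cdkn1a, Col1a1, Col3a1, Csf1, Cxcl1, Cxcl9, Cxcl12, Cxcl14, Cxcl16, Dcn, Des, Dkk2, Flcn, Frzb, H2-D1, H2-K1, Hmgcs1, Igf1, Il6, Il33, Isg15, Lamp1, Lcn2, Lif, Lpcat3, Lpin1, Mcoln1, Mki67, Mylip, Nfkbia, Osbpl6, Rel, Rela, Saa1, Saa2, Scarb1, Scd1, Tgfb2 and Usp18. Some genes that the rule names are not reported here. Gene coordinates came from GENCODE M21, which matched 55141 of 55401 genes.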

Additional observations from a re-analysis of the deposited data

How the results depend on the processing

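The number of genes called between lipid-depleted TCM and control, 10123, stayed within 1.5 times under all 24 alternatives, from 8219 at an adjusted p below 0.01 to 11556 in the fit of these 2 groups alone; edgeR called 10129, DESeq2 9892 and limma-voom 10107. Leaving out 1 library gave 9059 to 11037 calls. With the replicate number as a block, 9921 genes were called, 4822 of them higher; same-numbered libraries of the 2 groups had correlations of -0.020, 0.019 and -0.033, so the samples share only a number. Scaling moved the split of calls: 65.5% were higher with every library at the same total, 55.2% after quantile normalization and 53% with TMM, in place of 48.8%. Of the 185 genes named by rule, 182 kept direction and call under every alternative run and none reversed; the exceptions were mt-Atp8, mt-Nd1 and Rpl24. Of 2064 list counts under alternatives, 2013 stayed within 1.5 times, and those moved by same-total scaling, quantile normalization, TMM or a left-out library are given with their lists. The fit of the 2 groups alone raised the higher calls of TGF-beta and BMP genes from 5 to 8, of Wnt genes from 4 to 7 and of heat shock genes from 3 to 5; the cause was not tested. For genes near 10 normalized counts, depth limits the log2 differences, which the added 1 pulls toward 0.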
